A study of Mus musculus with 8 samples.

Results

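The 9 genes described here encode the pore-forming subunits of the AMPA receptors (Gria1, Gria2, Gria3 and Gria4) and of the kainate receptors (Grik1, Grik2, Grik3, Grik4 and Grik5). They were taken by exact symbol from a table of 24078 gene entries, and all 9 passed the filter on low counts that left 20478 genes. RNA came from the hippocampus of 4 mice homozygous for the Wfs1tm1Koks mutation and of 4 wild-type mice, each mouse giving 1 library. The strain label Wfs1tm1Koks is shared by both genotypes, no treatment is named, and age, sex and litter are not given in the labels. Wfs1 encodes an endoplasmic reticulum membrane protein that is strongly expressed in hippocampal CA1 pyramidal neurons.

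AMPA receptors are tetramers of GluA1 to GluA4, the products of Gria1 to Gria4, and carry most fast excitatory transmission in the brain. Kainate receptors are tetramers of GluK1 to GluK5, the products of Grik1 to Grik5: GluK1, GluK2 and GluK3 can form channels alone, whereas GluK4 and GluK5 need one of these as a partner. In the hippocampus, AMPA receptors of pyramidal neurons are built mainly from GluA1, GluA2 and GluA3, and kainate receptors are known above all at the mossy fibre synapses onto CA3 pyramidal neurons.

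The subunits share the stretch of coding sequence that lines the pore, and one glutamine codon in it, the Q/R site, is recoded to arginine by adenosine-to-inosine editing in Gria2, Grik1 and Grik2. The 45 bases around that codon are shown for the AMPA subunits and for both edited kainate subunits because they show how alike the genes are there and which bases the editing enzymes discussed further on act upon. They are unedited coding sequence of GENCODE M21 transcripts on mm10, 5′ to 3′, with the codon in capitals. The windows of Grik1 and Grik2 are spliced from 2 exons, and each AMPA window lies in 1 exon.
Gria1: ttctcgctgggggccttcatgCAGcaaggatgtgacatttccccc
Gria2: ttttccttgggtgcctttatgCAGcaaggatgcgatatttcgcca
Gria3: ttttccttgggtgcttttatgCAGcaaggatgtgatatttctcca
Gria4: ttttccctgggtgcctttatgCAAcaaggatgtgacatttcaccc
Grik1: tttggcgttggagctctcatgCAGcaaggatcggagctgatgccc
Grik2: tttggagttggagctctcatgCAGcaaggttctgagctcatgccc
The codon lies in exon 11 of Gria1 (chr11:57243094-57243096, plus strand) and exon 11 of Gria2 (chr3:80706911-80706913, minus strand). It lies in exon 12 of Gria3 (chrX:41610265-41610267, plus strand) and exon 12 of Gria4 (chr9:4464137-4464139, minus strand). In Grik1 it is in exon 13 (chr16:87940542-87940544, minus strand) and in Grik2 also in exon 13 (chr10:49244329-49244331, minus strand). Against Gria2, the window differed at 3 of 45 bases in Gria3, 6 in Gria4, 9 in Gria1, 16 in Grik1 and 18 in Grik2, and Grik1 differed from Grik2 at 4. The other kainate subunit genes span chr4:125490700-125714173 (Grik3, plus strand), chr9:42518135-42944493 (Grik4, minus strand) and chr7:25009849-25072346 (Grik5, minus strand). The counts are per gene and do not read the edited base.

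Library totals ran from 3250949 to 6747411 counts, and the lowest chi-square per degree of freedom between any pair of libraries was 5.11, so no library was a copy of another. Wfs1 itself served as the check of the labels: it fell from 52.0 ± 7.49 CPM (counts brought to a common library size with TMM factors; mean ± SD, n = 4) to 14.8 ± 2.61 CPM, with all 4 homozygous libraries below all 4 wild-type libraries. The level left was 28.5% of wild-type. The genotypes differed widely: edgeR's quasi-likelihood test (two-sided, threshold 0.05 after Benjamini-Hochberg adjustment across the whole table) called 41.1% of the 20478 genes, 20.4% lower in the homozygous libraries and 20.7% higher. With library totals in place of TMM factors, the split was 11.8% lower and 32.4% higher, and the median over the table moved from 0.05 to 0.25 in log2 fold change. Calls also followed abundance: of the 2048 genes in the top decile of mean CPM, 55.1% were lower and 12.6% higher, with a median log2 fold change of -0.46.

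Of the 9 subunit genes, 4 were called, all lower in the homozygous hippocampus, beside 41.1% of all genes called and 20.4% called lower: Gria1, Gria2 and Gria3 among the AMPA subunits and Grik1 among the kainate subunits. No subunit gene was called higher, against 20.7% of all genes. At an unadjusted p under 0.05 in edgeR, 2 were higher (Gria4 and Grik4) and 5 lower, while DESeq2 called 4 lower and 0 higher and limma-voom 5 lower and 0 higher. The same 4 genes had wild-type and homozygous libraries that did not overlap, all in the lower direction, a pattern found in 18.8% of all genes in that direction and 37.6% in either. The median log2 fold change was -0.44 over the 4 AMPA genes and -0.13 over the 5 kainate genes, beside 0.05 over all genes. All 4 AMPA genes and Grik2 lie in the top decile of abundance, Grik3 and Grik5 in decile 9, and Grik1 and Grik4 in decile 6.

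**Figure D1:**
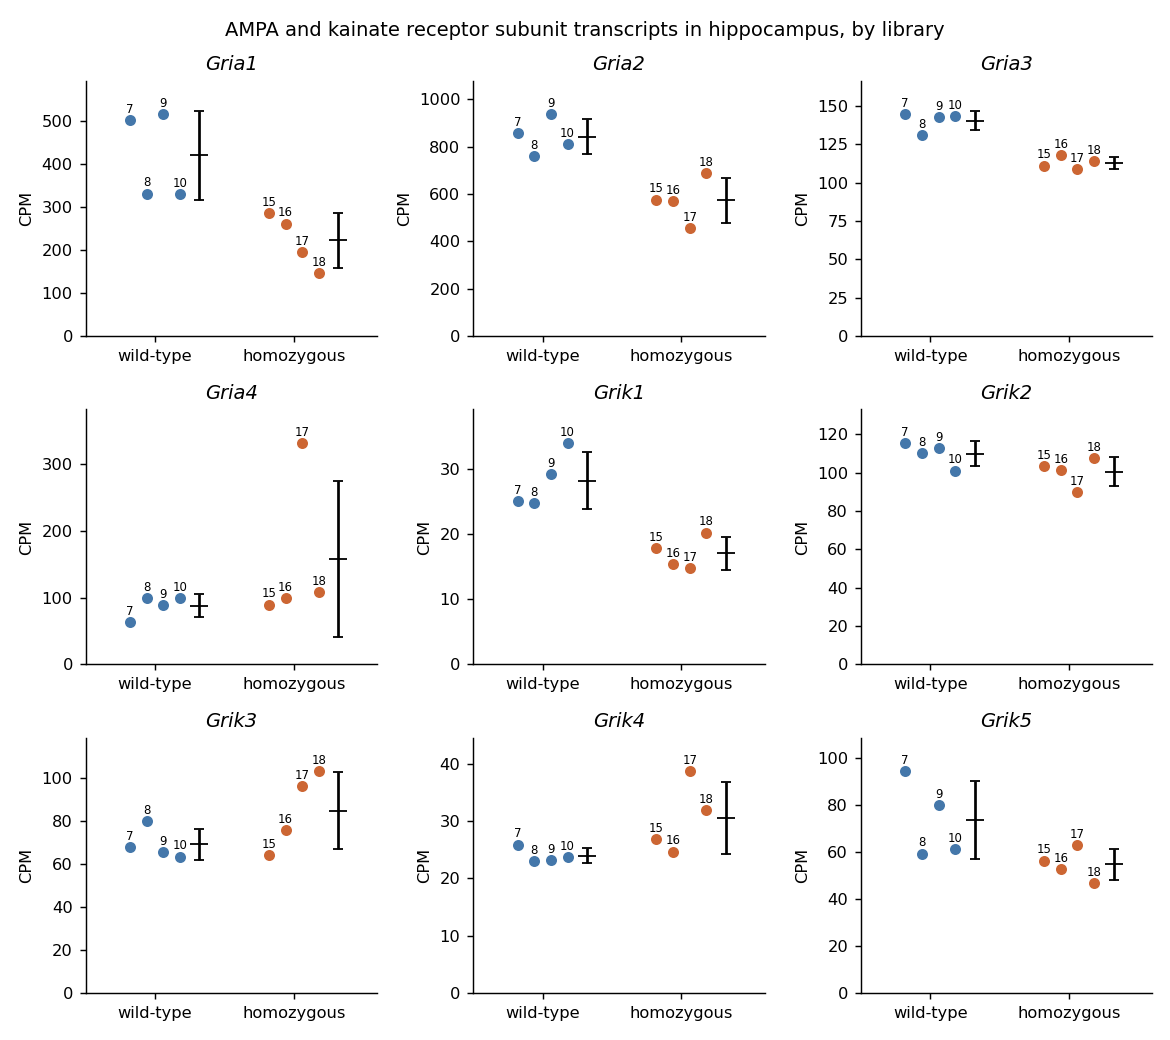
CPM of each of the 9 subunit genes in each of the 4 wild-type and 4 homozygous libraries, 1 point per library with a bar at the group mean. Gria1, Gria2, Gria3 and Grik1 show no overlap between genotypes, and 1 homozygous library stands at 332 CPM for Gria4 where the other 3 lie between 89.6 and 108.6 CPM.

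Gria1 encodes GluA1, the subunit recruited to synapses in hippocampal long-term potentiation. It measured 502, 330.6, 515 and 330.1 CPM in the wild-type libraries (replicates 7, 8, 9 and 10, the order used throughout), and 286, 261, 195 and 146 CPM in the homozygous libraries (replicates 15, 16, 17 and 18). All homozygous libraries lay below all wild-type ones, and the wild-type libraries themselves formed a high pair (7 and 9) and a low pair (8 and 10). Group means were 419 ± 103 and 222 ± 63.8 CPM, and the log2 fold change was -0.92 (SE 0.23, edgeR adjusted p = 0.00975). The fall was called with any 1 library left out. When the trend of fold change with abundance was removed, the value was -0.305 with an adjusted p of 0.29, and when the trend with counts per kilobase of exon was removed it was -0.21 with an adjusted p of 0.498.

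Gria2 encodes GluA2, the subunit whose edited pore makes AMPA receptors nearly impermeable to calcium. It was the most counted of the 9 genes, at 857, 762, 937 and 811 CPM in the wild-type libraries and 577, 570.1, 455 and 689.5 CPM in the homozygous ones. The lowest wild-type library stood above the highest homozygous one, replicate 18. The mean went from 842 ± 74.5 to 573 ± 95.7 CPM, and the log2 fold change was -0.56 (SE 0.16, edgeR adjusted p = 0.0181). This call was lost without wild-type replicate 7 (edgeR adjusted p = 0.051) or replicate 9 (0.0602) and with library totals as the scale (-0.36, adjusted p = 0.0955). The direction turned once the abundance trend was taken out (0.21, adjusted p = 0.276) and likewise for the density trend (0.09, adjusted p = 0.687).

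Gria3, on the X chromosome, encodes GluA3, which pairs with GluA2. Its libraries were the tightest of the family: 145, 131, 143 and 143 CPM in the wild-type libraries and 111, 118, 109 and 114 CPM in the homozygous ones. The groups did not overlap. The mean went from 140.4 ± 6.20 to 113 ± 4.07 CPM, a log2 fold change of -0.31 (SE 0.11), and the edgeR adjusted p was 0.0363. That call held in only 2 of the 8 fits that each left out 1 library, those without wild-type replicate 8 or homozygous replicate 16. It was lost with library totals (-0.115, adjusted p = 0.434), and with the abundance trend removed the value was 0.03 (adjusted p = 0.853).

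Gria4 encodes GluA4, a fast-gating subunit that in the adult hippocampus is found mainly in interneurons. It measured 63.9, 99.7, 89.4 and 99.3 CPM in the wild-type libraries and 89.6, 99.03, 332 and 108.6 CPM in the homozygous ones. Homozygous replicate 17 was 3.06 times the next homozygous library, while replicates 15 and 16 lay within the wild-type range and replicate 18 above it. The log2 fold change of 0.84 (SE 0.38) did not pass the test (edgeR adjusted p = 0.095). It passed with library totals (1.03, adjusted p = 0.0414) and once the abundance (1.152, 0.0388) or density trend (1.18, 0.032) was taken out. Without replicate 17 the TMM value was 0.16 with an adjusted p of 0.47. Homozygous replicate 17 stood more than 2-fold above every other library at 89 of the 18284 genes with a mean of at least 5 CPM, Gria4 among them, and the other homozygous libraries did so at 17 (replicate 15), 239 (replicate 16) and 72 (replicate 18) genes. The wild-type libraries did so at 1 to 109 genes.

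Among the kainate subunits only Grik1, which encodes GluK1, a subunit found in hippocampal interneurons, passed the test. Its level was 25.1, 24.8, 29.2 and 34.1 CPM in the wild-type libraries and 17.8, 15.4, 14.7 and 20.2 CPM in the homozygous ones. No homozygous library reached the lowest wild-type one. Group means were 28.3 ± 4.37 and 17.1 ± 2.51 CPM, and the log2 fold change was -0.73 (SE 0.16, edgeR adjusted p = 0.00439). It was lower and called in all 16 alternative fits, which left out each library, changed the tool or scaling, or removed the abundance or density trend. The values ran from -0.90 to -0.53, and the highest adjusted p was 0.0245. The gene is one of the less counted members, with 808 counts over the 8 libraries.

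Grik2 encodes GluK2, the principal kainate subunit of CA3 and dentate gyrus neurons. It measured 115.5, 110.2, 113 and 101 CPM in the wild-type libraries and 103, 101, 89.9 and 108 CPM in the homozygous ones. The groups overlapped, and the log2 fold change of -0.13 (SE 0.11) did not pass the test (edgeR adjusted p = 0.383). Its sign depended on the scaling, at 0.07 with library totals and 0.17 with the abundance trend removed.

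Grik3 encodes GluK3, a subunit of low glutamate affinity. It measured 67.9, 79.7, 65.3 and 63.3 CPM in the wild-type libraries and 63.9, 75.8, 96.0 and 103 CPM in the homozygous ones. Homozygous replicates 17 and 18 were above all wild-type libraries, and replicates 15 and 16 were within their range. The log2 fold change of 0.29 (SE 0.16) was not called (edgeR adjusted p = 0.162), but was called at 0.49 with library totals (adjusted p = 0.0193) and at 0.49 without the abundance trend (adjusted p = 0.0325). Without the density trend it was 0.295 and not called (edgeR adjusted p = 0.169).

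Grik4 and Grik5 encode the high-affinity partner subunits GluK4 and GluK5. Grik4 measured 25.9, 23.1, 23.3 and 23.8 CPM in the wild-type libraries and 26.8, 24.7, 38.7 and 31.99 CPM in the homozygous ones. The wild-type libraries lay close together, and only homozygous replicate 16 fell inside their range. Its log2 fold change of 0.34 (SE 0.15) missed the threshold (edgeR adjusted p = 0.0942), and passed it with library totals (0.54, adjusted p = 0.0148) and without homozygous replicate 16 (0.42, adjusted p = 0.0454). Grik4 was not called with the abundance trend removed (0.315, edgeR adjusted p = 0.128) or the density trend removed (0.19, 0.382). Without homozygous replicate 17, its highest library, the value was 0.20 (0.278). Grik5 measured 94.5, 59.3, 79.9 and 61.4 CPM in the wild-type libraries and 56.3, 52.9, 63.0 and 47.0 CPM in the homozygous ones. As with Gria1, wild-type replicates 7 and 9 were the high pair, and homozygous replicate 17 lay above the low pair and below the high pair. The log2 fold change of -0.43 (SE 0.17) missed the threshold (edgeR adjusted p = 0.0563), and limma-voom called it at -0.47 (adjusted p = 0.0351). In edgeR it was -0.23 with library totals (adjusted p = 0.289). It was -0.27 (0.207) with the abundance trend removed and -0.25 (0.253) with the density trend removed. Of the 8 fits that each left out 1 library, 3 called Grik5.

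**Figure D2:**
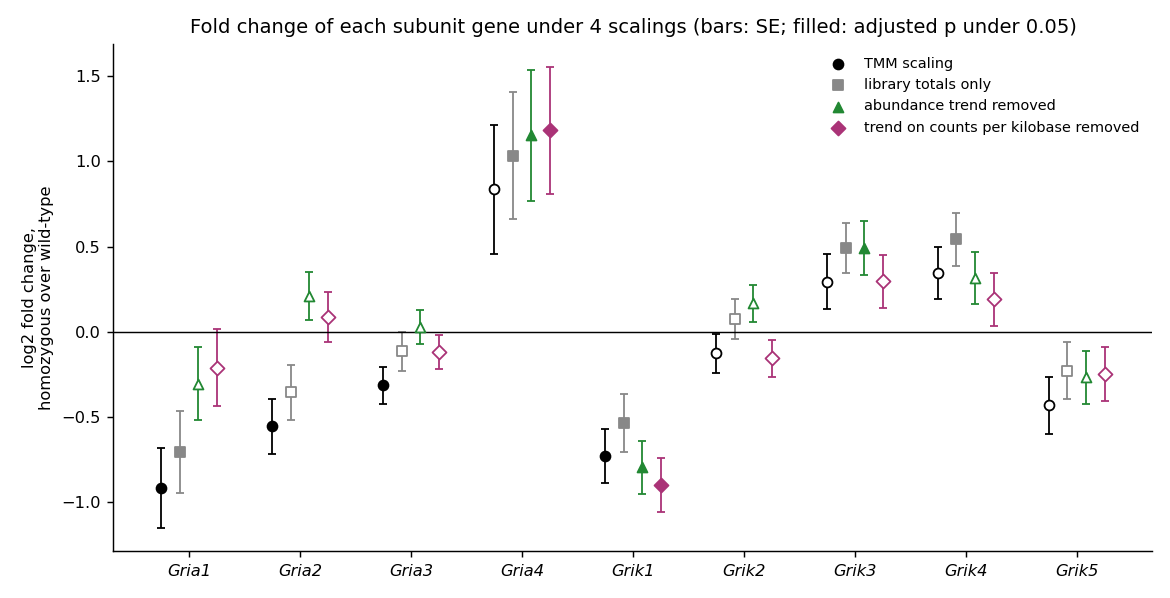
Log2 fold change, homozygous over wild-type, of the 9 subunit genes under TMM scaling, library totals, and removal of the abundance or density trend, with SE bars. Grik1 stays between -0.90 and -0.53 under these settings, while Gria2 and Gria3 change sign with the abundance trend removed, Gria2 also with the density trend removed, and Grik2 with library totals and with the abundance trend removed.

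Per kilobase of annotated exon, Gria1 and Gria2 had the highest means of the 9 genes in both genotypes. In wild-type libraries Gria1 stood at 69.4 ± 17.04 and Gria2 at 54.1 ± 4.79 CPM per kilobase, with overlapping libraries. A gap without overlap separated Gria2 from a middle group, which held Grik5 at 14.3 ± 3.21, Gria3 at 14.2 ± 0.63 and Gria4 at 14.0 ± 2.67 CPM per kilobase. Grik2 (8.29 ± 0.476) and Grik3 (7.70 ± 0.817) came next, and Grik1 (4.21 ± 0.65) and Grik4 (4.03 ± 0.22) last, again with no overlap between these pairs of neighbours. In homozygous libraries Gria2 (36.8 ± 6.16) and Gria1 (36.7 ± 10.6) had nearly equal means, Gria4 reached 52.7 in replicate 17 and was the highest of the 9 genes there, and Grik1 was alone at the bottom at 2.54 ± 0.374, below Grik4 at 5.13 ± 1.05 CPM per kilobase with no overlap. As a gauge of background, 767 olfactory, vomeronasal and taste receptor genes that passed the low-count filter were taken, which hippocampal cells should largely lack. They had a median of 1.10 and a 90th percentile of 3.57 CPM per kilobase in wild-type libraries, and 1.6 and 5.28 in homozygous ones. Family members removed by the filter were left out, so the gauge leans high and does not mark the level of silent genes. In the wild-type libraries Grik1 and Grik4 were above that 90th percentile. In the homozygous libraries Grik1 was below it in every library, at 2.19 to 3.01 CPM per kilobase, and Grik4, at 4.14 to 6.499, lay on either side of it.

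As a share of each family's summed CPM per kilobase, Gria1 made up 45.2 ± 5.54% of the AMPA family in wild-type and 33.5 ± 9.52% in homozygous libraries, with overlap. Gria2 was at 35.9 ± 1.97% and 34.2 ± 9.08%, and Gria3 at 9.48 ± 1.03% and 10.5 ± 1.32%, both with overlap. The share of Gria4 was 9.44 ± 2.73% against 21.8 ± 13.6%, with no overlap, and without homozygous replicate 17, whose share was 42.1%, the homozygous mean was 15.1 ± 2.43%. In the kainate family the share of Grik1 went from 11.04 ± 2.33% to 7.22 ± 1.13% and that of Grik4 from 10.5 ± 0.574% to 14.4 ± 1.83%, each with no overlap. Grik5 remained the largest share on average, at 36.8 ± 5.17% and 30.1 ± 3.84%, though Grik3 exceeded it in homozygous replicate 18, where Grik3 stood at 31.0% and Grik5 at 24.5%.

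**Figure D3:**
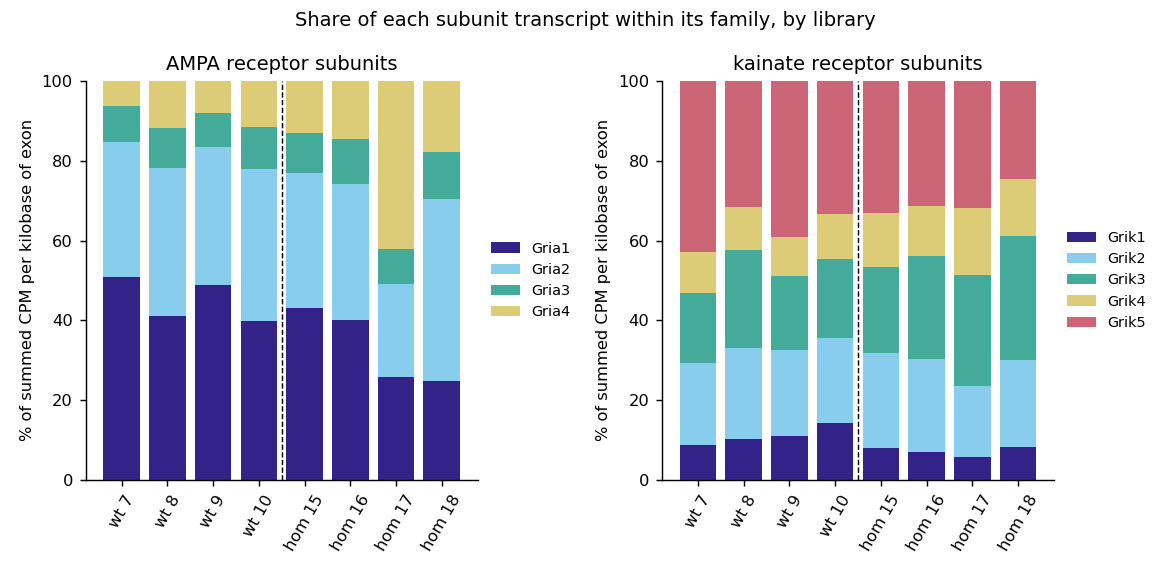
Share (percent, stacked from 0) of each subunit gene in the summed CPM per kilobase of its family, 1 bar per library, AMPA and kainate families separately. Gria4 takes 42.1% of the AMPA family in homozygous replicate 17 and between 12.9% and 17.7% in the other 3 homozygous libraries.

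The summed AMPA subunits measured 1568, 1323, 1684 and 1384 CPM in the wild-type libraries and 1064, 1048, 1091 and 1058 CPM in the homozygous ones, with no overlap. The homozygous sums lay close together, although replicate 17 reached its sum with more Gria4 and less Gria2 than the other 3. Without Gria4 the sums were 1402 ± 176 and 908 ± 100.1 CPM, still without overlap. The kainate sums overlapped, at 305 ± 19.4 and 288 ± 21.7 CPM. The ratio of the AMPA to the kainate sum per kilobase was 3.94 ± 0.325 in wild-type and 3.13 ± 0.337 in homozygous libraries, with no overlap.

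Ratios of 2 subunits within a library do not depend on its scaling factor, and 7 of them were compared. Exact two-sided permutation tests of 4 against 4 libraries cannot go below p = 0.0286, and 3 of the 7 ratios reached that value, each with a Benjamini-Hochberg p of 0.0667 over the 7, so none passed 0.05 after adjustment. The log2 ratio of Grik1 to Grik2 went from -1.97 ± 0.29 to -2.57 ± 0.128, a difference of -0.60, and remained between -0.68 and -0.47 with any 1 library left out. Grik4 to Grik5, the pair of high-affinity subunits, went from -1.60 ± 0.266 to -0.86 ± 0.27, a difference of 0.74, with a range of 0.64 to 0.82 on leaving out a library. Gria4 to Gria2 differed by 1.19, and by 0.65 without homozygous replicate 17, still without overlap. Gria1 to Gria2 differed by -0.37 (exact permutation p = 0.314), and by -0.09 without homozygous replicate 18, where the log2 ratio was -2.24 against -1.01 to -1.22 in the other 3 homozygous libraries. Gria3 to Gria2 differed by 0.25 (exact permutation p = 0.114), Grik3 to Grik2 by 0.40 (0.0857) and Grik5 to Grik2 by -0.28 (0.2). Members of these pairs differ in abundance, so a trend with abundance can enter a ratio as well.

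**Figure D4:**
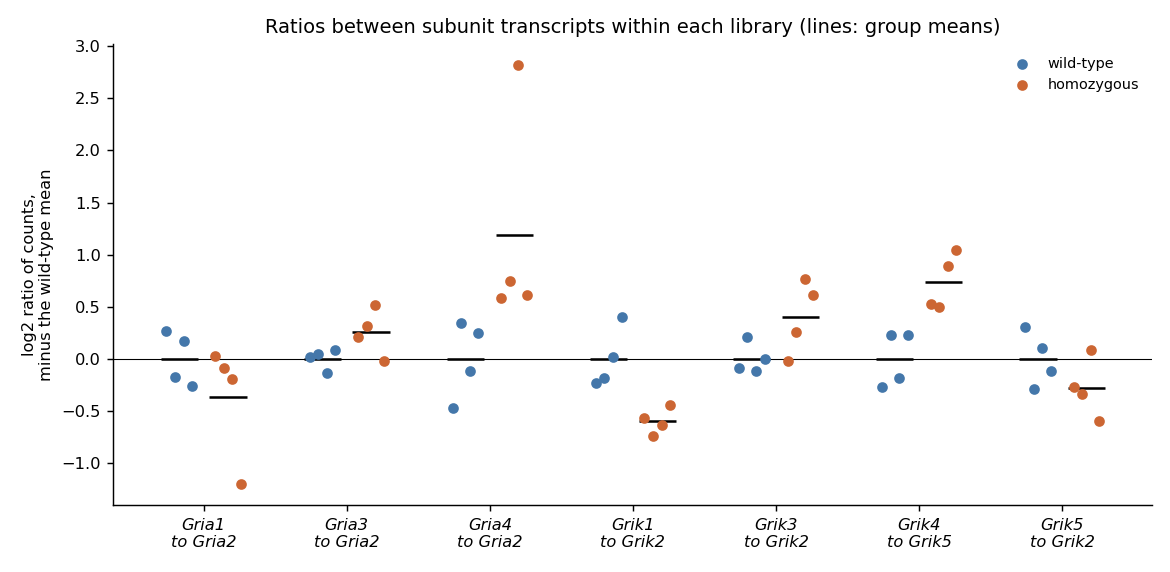
Log2 ratio of counts of the 7 subunit pairs in each library, 1 point per library with a bar at the group mean. Gria4 to Gria2, Grik1 to Grik2 and Grik4 to Grik5 show no overlap between genotypes, and homozygous replicate 17 stands apart for Gria4 to Gria2.

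Among the auxiliary subunits that bind AMPA receptors, 6 of 14 tested genes were lower and 0 higher (edgeR, against 20.4% and 20.7% of all genes), with a median log2 fold change of -0.25 beside 0.05 over all genes. None was higher at an unadjusted p under 0.05 or by DESeq2, and 1 was by limma-voom. The counts were 4 lower and 1 higher with library totals (11.8% and 32.4% of all genes). They were 5 and 0 once the abundance trend was taken out (16.3% and 18.1%), and 3 and 0 for the density trend (15.2% and 17.1%). Cnih2 and Cnih3 encode cornichons, which slow AMPA receptor closing. Cnih2 measured between 231 and 303 CPM in wild-type and between 75.1 and 146 CPM in homozygous libraries, and fell by 1.26 on the log2 scale (SE 0.19, edgeR adjusted p = 6.52e-04). Cnih3 fell by 1.0 (SE 0.15, adjusted p = 5.33e-04). Both lost the call without the density trend, at -0.41 (adjusted p = 0.132) and -0.42 (0.0635).

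Cacng8 encodes the hippocampal TARP gamma-8, which holds AMPA receptors at and outside synapses. It measured 56.1, 51.2, 57.8 and 52.0 CPM in the wild-type libraries and 31.97, 21.2, 35.9 and 20.2 CPM in the homozygous ones, with no overlap. It fell by 0.98 on the log2 scale (SE 0.18, edgeR adjusted p = 0.00168), and was called with any 1 library left out and with either trend removed. Cacng4, another TARP, fell by 1.49 (SE 0.38, adjusted p = 0.00991), although homozygous replicate 17, at 26.9 CPM, was above the lowest wild-type library, at 22.0 CPM. Cacng7 (-0.75, adjusted p = 0.03) and Syndig1 (-0.43, adjusted p = 0.0394) were the other members called lower. The Syndig1 call was lost without wild-type replicate 7 or 9 or homozygous replicate 15, 17 or 18, with library totals (0.249) and with either trend removed (0.0518 and 0.265). The Cacng7 call was lost without homozygous replicate 15 or wild-type replicate 7 or 9, and with library totals (0.0868). Cacng2, which encodes stargazin, had a log2 fold change of 0.40 and was not called (adjusted p = 0.125), though library totals called it higher at 0.61 (adjusted p = 0.0249).

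Of the kainate receptor partners, Neto1 and Neto2 encode auxiliary subunits and C1ql2 and C1ql3 encode secreted proteins that cluster kainate receptors at mossy fibre synapses. None of the 4 was called by edgeR in either direction, beside 41.1% of all genes. At an unadjusted p under 0.05 there were 2 lower and 0 higher. DESeq2 called 1 lower and limma-voom 2 lower, and neither called one higher. Neto1 stood at -0.34 (edgeR adjusted p = 0.0599) and C1ql3 at -0.35 (0.0734), and C1ql3 was called higher, at 0.38, without the density trend (adjusted p = 0.0421).

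In the list for assembly, anchoring and trafficking of AMPA receptors, 12 of 18 genes were lower and 0 higher, with a median log2 fold change of -0.53. Over all genes, 20.4% were lower and 20.7% higher. At an unadjusted p under 0.05, 13 were lower and 0 higher, as by limma-voom, and DESeq2 called 12 lower and 0 higher. The number lower was 6 with library totals, 6 with the abundance trend removed and 5 with the density trend removed. The shares of all genes lower under these settings were 11.8%, 16.3% and 15.2%. Dlg4, which encodes the postsynaptic scaffold PSD-95, had the highest level of the list, at 632 ± 84.9 CPM in wild-type and 322 ± 31.4 CPM in homozygous libraries. Its log2 fold change was -0.97 (SE 0.15, edgeR adjusted p = 7.33e-04), and -0.28 once the abundance trend was taken out (adjusted p = 0.0997). With the density trend removed the Dlg4 value was -0.39 (edgeR adjusted p = 0.038). Ap2a1, a clathrin adaptor subunit in receptor endocytosis, measured between 123 and 153 CPM in wild-type and between 73.8 and 80.1 CPM in homozygous libraries. It fell by 0.83 on the log2 scale (SE 0.12, edgeR adjusted p = 5.12e-04) and was called under these settings too. Nsf, an ATPase that binds GluA2, fell by 0.82 (SE 0.16, adjusted p = 0.00286). The Nsf call was lost once the abundance trend (-0.34, edgeR adjusted p = 0.112) or the density trend (-0.35, 0.119) was removed. Cpt1c, a partner of GluA1 in the endoplasmic reticulum, fell by 0.75 (SE 0.19, adjusted p = 0.00917). The scaffold genes Grip1 (0.03) and Grip2 (-0.06) were not called.

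The 3 genes of the adenosine deaminase family split. Adarb1, which encodes ADAR2, the enzyme that edits the Gria2 codon shown above, measured 199, 152, 221 and 179.5 CPM in the wild-type libraries and 139, 142, 123 and 124 CPM in the homozygous ones. It fell by 0.51 (SE 0.14, edgeR adjusted p = 0.0139) and Adar by 0.52 (SE 0.15, adjusted p = 0.0154). Both calls were lost with library totals and with either trend removed, and without wild-type replicate 9 for Adarb1 or replicate 7 for Adar. Adarb2, a relative without known editing activity, rose from 54.5 ± 4.10 to 83.3 ± 16.3 CPM, a log2 fold change of 0.61 (SE 0.15, adjusted p = 0.00709), and was called in all of these fits. Whether the share of edited transcripts differed was not measured.

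**Figure D5:**
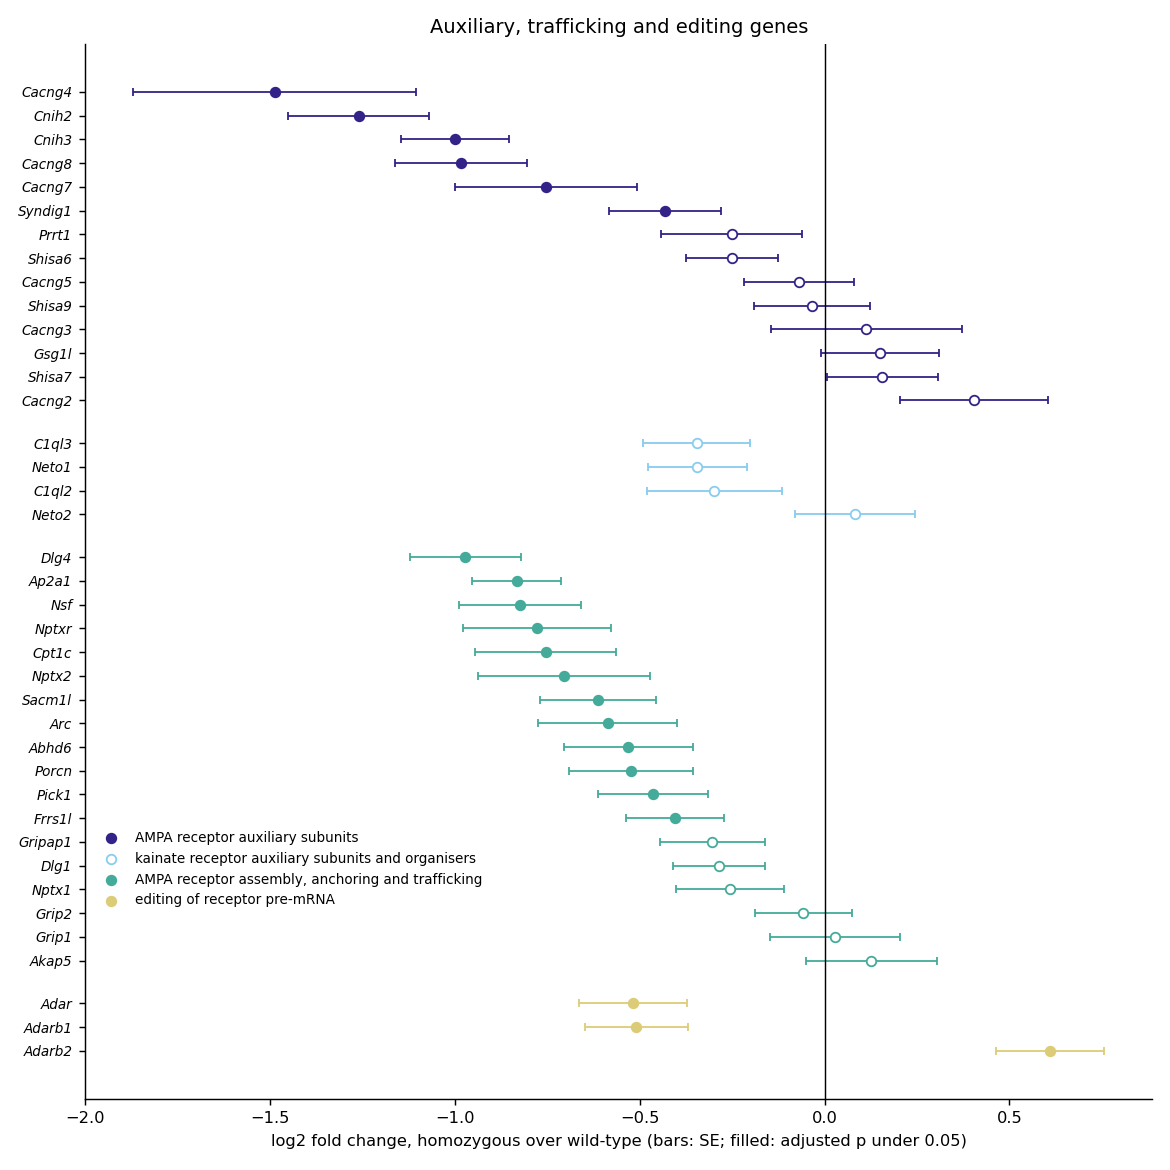
Log2 fold change, homozygous over wild-type under TMM scaling, with SE bars, for the tested genes of the auxiliary, trafficking and editing lists, filled where the edgeR adjusted p was under 0.05. Cacng4 (-1.49), Cnih2 (-1.26) and Cnih3 (-1.0) lie far to the left, and the called gene to the right is Adarb2 (0.61).

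Markers of several cell types had lower sums in the homozygous libraries, and the part of cell type markers in these results was not tested. Their counts stand beside 20.4% of all genes lower and 20.7% higher, and as with the subunit genes many depended on the scaling. Over all genes, the shares lower and higher were 11.8% and 32.4% with library totals. They were 16.3% and 18.1% without the abundance trend, and 15.2% and 17.1% without the density trend. In bulk tissue, fewer cells of a type and less RNA per cell cannot be told apart. Markers of pyramidal neurons, which carry much Gria1 and Gria2, were lower for 6 of 8 genes and higher for 1 (Neurod2), with sums of 2426 to 3231 CPM in wild-type and 1658 to 2179 CPM in homozygous libraries. The wild-type sums paired as Gria1 did, at 3142 and 3231 CPM in replicates 7 and 9 and 2426 and 2446 CPM in replicates 8 and 10. Wfs1 is itself one of these 8 markers, and Camk2a, the highest of them over all 8 libraries, went from 1000 ± 180.5 to 658 ± 58.2 CPM. The number of pyramidal markers lower was 5 with library totals, 4 without the abundance trend and 2 without the density trend. Markers of GABAergic interneurons, in which Gria4 and Grik1 are prominent, (highest, Reln) were lower for 7 of 10 genes, from 706 to 782.5 down to 474 to 549.7 CPM, and for 4, 4 and 2 under the same settings. Markers of dentate granule neurons (highest, Pdzd2) were lower for 1 of 7, with sums of 372 to 397 and 329.6 to 363 CPM.

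Of the glial lists, those of astrocytes and oligodendrocytes had lower sums in the homozygous libraries. Astrocyte markers (highest, Slc1a2) were lower for 4 of 7 genes (3273 to 4100 against 2265 to 2447 CPM) and oligodendrocyte markers (highest, Mbp) for 6 of 7 (1426 to 2274 against 964 to 1190 CPM). With library totals 3 astrocyte markers were lower and 1 higher, without the abundance trend 0 and 0, and without the density trend 0 and 1. For oligodendrocyte markers the number lower was 4, 2 and 1. Oligodendrocyte precursor markers (highest, Cspg4), 2 lower and 2 higher of 7, overlapped at 325 to 412 and 381 to 1796 CPM. The highest of these sums was in homozygous replicate 16, where Cspg4 alone stood at 1449 CPM. Replicate 17, the library high for Gria4, had the lowest homozygous sum and the lowest homozygous Cspg4, at 81.0 CPM. Its Olig1 (32.4 CPM) and Olig2 (16.8 CPM) were the highest of the homozygous libraries, and the other genes of the list were neither highest nor lowest there. Markers of microglia (2 of 8 lower; highest, Csf1r), endothelium (2 lower and 1 higher of 7; highest, Slco1a4) and choroid plexus (1 lower and 1 higher of 7; highest, Ttr) had overlapping sums. The choroid plexus sums ran from 193 to 1205 CPM in wild-type and 116 to 864 CPM in homozygous libraries. No gene of these lists was at 0 in any library.

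To name genes with a like pattern, log2 CPM (pseudocount 0.5) was centred on each gene's mean over the 8 libraries, and the root mean square difference was taken against 18274 genes with a mean of at least 5 CPM. For Gria1 the nearest were Uba1 (0.116 log2 units, 209 ± 40.2 to 119 ± 23.9 CPM) and Ppp1r37 (0.138). For Gria2 they were Tmem222 (0.049, 44.3 ± 4.68 to 31.0 ± 4.86 CPM) and Hdac3 (0.056), and for Grik2 Zfyve20 (0.042) and Kcna2 (0.044). Within the family, Grik1 was at 0.171 and Gria3 at 0.195 from Gria2, nearer than Gria1 at 0.422. Gria1 was nearest to Grik5, at 0.367, and Grik2 was nearest to Gria3, at 0.126.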

How the data were processed

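Total RNA of the hippocampus went through ribosomal RNA depletion and the SOLiD Total RNA-Seq kit, and was read in pairs of 50 and 35 bp on a SOLiD 4 instrument, per the labels' protocols. What the authors deposited is a table of unnormalised read counts by gene symbol, with 8 library columns. The build is mm10, per the submitters' processing notes. For the aligner, counter, strand use and gene models, a name was not given in the sources used here. Whole numbers with differing library totals identify the unit.

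Of 24078 entries, 3600 were removed by filterByExpr of edgeR 4.0.16 (R 4.3.3), and the other 20478 were fitted together with TMM scaling and the quasi-likelihood test with no covariate. Error is the SD over 4 libraries for CPM and the SE for log2 fold changes. The labels give 4 individuals per genotype, so p-values weigh genotype against the spread between animals. Exon lengths and coding sequence came from GENCODE M21 on the same build. Symbols matched it for 20766 entries by current and 1921 by older name, leaving 1391 unmatched. The table lists Syndig1 as Tmem90b and Frrs1l as 6430704M03Rik, and of 15 listed AMPA auxiliary genes Shisa8 is not analysed here. Annotated genes that overlap the 9 members are on the same strand and have no entry of their own in the count table.

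The trend alternatives fitted, in each library, a loess curve (span 0.3) of log2 CPM minus the gene's mean over libraries. The curve was taken on mean abundance, or on density (counts divided by exon length), and entered the edgeR fit as an offset. Other alternatives were DESeq2 1.42.0, limma-voom 3.58.1, library totals, other filters and leaving out each library. On simulated counts for this comparison (19805 genes), the edgeR fit found 4 of 64 genes given a 1.5-fold change. It found 43 of 64 given 2-fold and 59 of 61 given 4-fold, and made 12 false calls. Only these genes were changed, far fewer than the 41.1% called in the real table, and fewer changes make the adjusted threshold stricter. The shares found therefore do not give the sensitivity of the real comparison.

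The 9 members and all lists were chosen with earlier results of these data known. The genes named are every member, up to 4 called genes of smallest p and the gene of highest CPM in each related list, the gene of highest CPM in each cell type list, and the 2 genes nearest in pattern to Gria1, Gria2 and Grik2. Other genes (Cacng2, Cacng7, Syndig1, Neto1, Neto2, C1ql2, Grip1, Grip2 and Neurod2) were chosen after their values were seen. One further list of related genes is not reported here.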

Additional observations from a re-analysis of the deposited data

Results flagged for a closer look

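In 34 groups of 4 libraries checked, 3 had a library whose gap to the nearest of the others passed Dixon's critical value as a share of the group's range. Chance gives about 1 in 20 groups where groups are independent and values normal. These groups are not independent, because the ratios reuse the counts of the members. Gria4 in homozygous libraries was 332 CPM in replicate 17, with a gap of 0.921 of the range. The log2 ratio of Gria4 to Gria2 was -0.45 in the same library, with a gap of 0.928, and rests on the same Gria4 count. Gria3 in wild-type libraries was lowest in replicate 8, at 131 CPM, with a gap of 0.85 of the range.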

How the results depend on the processing

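Grik1 kept its direction and its call in all 16 alternatives. With library totals, 2 subunit genes were lower and 3 higher, 2412 of all genes were lower and 6645 higher, and the log2 fold changes were -0.36 for Gria2, -0.115 for Gria3, 0.074 for Grik2, and 1.03, 0.49 and 0.54 for Gria4, Grik3 and Grik4, these last 3 called. With the abundance trend removed, 1 subunit gene was lower and 2 higher, beside 16.3% and 18.1% of all genes. The log2 fold changes were then -0.305 for Gria1, 0.21 for Gria2, 0.028 for Gria3, 1.152 for Gria4, 0.17 for Grik2 and 0.49 for Grik3. With the density trend removed, 1 subunit gene was lower and 1 higher, beside 15.2% and 17.1% of all genes. The values were -0.21 for Gria1, 0.086 for Gria2, -0.12 for Gria3 and 1.18 for Gria4. Limma-voom called Grik5, at -0.47. Leaving out each library gave 2 to 5 subunit genes lower and 0 to 1 higher, with ranges of -0.66 to -0.47 for Gria2, -0.36 to -0.30 for Gria3, 0.16 to 1.04 for Gria4, 0.20 to 0.42 for Grik4 and -0.54 to -0.295 for Grik5. The causes of these changes were not tested. No paired analysis was possible because the genotypes share no replicate numbers. Where strand was not used in counting, reads from the opposite strand of a subunit gene would be counted with it. On simulated counts with few genes changed, a 1.5-fold change was mostly missed, which does not give the sensitivity of the real comparison.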
